A study of Mus musculus with 6 samples.

Results

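The 10 genes described here encode the core and accessory proteins of Polycomb repressive complex 2 (PRC2): Ezh1, Ezh2, Eed, Suz12, Rbbp4, Rbbp7, Jarid2, Mtf2, Phf1 and Phf19. They were chosen by name, and all 10 were found among the 48395 gene symbols of 6 RNA sequencing libraries. The libraries were made from LSK cells, a sorted bone marrow fraction without lineage markers that carries Sca-1 and c-Kit and holds haematopoietic stem cells and early progenitors. In both groups the donor marrow was Mx1Cre; Jak2V617F/+ (Jak2VF/+), had been primed with 5-fluorouracil, was transduced with a lentivirus and was transplanted into lethally irradiated C57BL/6 recipients, and cells were collected 32 weeks later. The 3 libraries labelled Hmga2 came from marrow given a lentivirus with Hmga2, and the 3 vector libraries came from marrow given the lentivirus without it. Mx1Cre is an interferon-inducible Cre, and the sort is described by surface antigens alone, so untransduced cells and surviving cells of the host cannot be told apart from transduced donor cells. The labels call the 3 libraries of a group biological replicates and do not say whether any was pooled from several mice.

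Total counts per library ranged from 24818011 to 35471806, at which 3 reads correspond to 0.0846 to 0.121 CPM (reads of a gene scaled to a common library total), a floor for counting error only. Levels below are CPM scaled by TMM factors, and values of a group are listed in the order of replicates 1, 2 and 3. The row for Hmga2, the gene named by the label, was not called: Hmga2 was at 2.63, 6.63 and 5.91 CPM in libraries labelled Hmga2, against 5.95, 5.03 and 7.03 CPM in the vector libraries. The log2 fold change, labelled Hmga2 over vector, was -0.25 (95% interval -1.08 to 0.58) and its adjusted p was 0.934 in edgeR. Whether RNA from the lentiviral Hmga2 would be counted in this row is not given in the labels, so it is not known whether these values include the introduced gene. Directions are therefore given for the libraries as labelled. The genes of the sorted antigens were present in every library. Kit was at 345 to 375 CPM in libraries labelled Hmga2 and 248 to 354 CPM in vector libraries. Over the 6 libraries Ly6a, which encodes Sca-1, was at 19.3 to 59.1 CPM and the progenitor gene Cd34 at 526 to 795 CPM. Of 8 LSK markers 6 had positive and 2 negative fold changes, with a log2 median of 0.24. Of the 8, 0 were called by edgeR or DESeq2, and 1, Meis1, had an unadjusted p under 0.05 (5.59% of all genes). Meis1 averaged 152 CPM in labelled Hmga2 libraries and 111 CPM in vector libraries, without overlap (11.2% of all genes). Immunoglobulin transcripts took 0.0886%, 0.642% and 0.0631% of counts in the libraries labelled Hmga2, and 1.85%, 0.0801% and 1.52% in the vector libraries. Summed Y-linked genes were at 192, 5.26 and 127 CPM in labelled Hmga2 libraries, against 6.61, 21.5 and 5.44 CPM in vector libraries. The X-linked gene Xist was at 29.2, 637 and 166 CPM in labelled Hmga2 libraries, against 633, 550 and 466 CPM in vector libraries. The part of the sex of the cells in the results below was not tested. Of 10 granulocyte markers all had negative fold changes, from -3.18 (Ltf) to -0.51 on the log2 scale, the median being -1.63. Of the 10, 8 had an unadjusted p under 0.05 (5.59% of all genes did) and 0 were called by edgeR (0.0% of all genes). DESeq2 called 3 lower (Ltf, Ms4a3 and Ngp), where it called 0.321% of all genes. In the libraries labelled Hmga2, Ltf had only 3, 19 and 2 reads and Ngp 7, 24 and 12 reads. Of the 10, 7 were lower in the labelled Hmga2 libraries without overlap, against 5.88% of all genes. The summed level of the 10 markers, most of it Mpo, was 4850, 2980 and 4110 CPM in libraries labelled Hmga2. In the vector libraries the sum was 4380, 9300 and 4990 CPM. None of the 10 was at 0, and Elane averaged 170 CPM in labelled Hmga2 libraries and 481 CPM in vector libraries. Of 10 plasma and B cell markers 8 were negative, with sums of 194 to 502 CPM in labelled Hmga2 libraries and 224 to 1090 CPM in vector libraries. Of 10 erythroid markers 7 were negative, with sums of 1100 to 1550 CPM in labelled Hmga2 libraries and 1490 to 1870 CPM in vector libraries, and no marker of either list was at 0. DESeq2 called the erythroid genes Klf1 and Rhd lower and 0 plasma and B cell markers. The part of granulocytes, erythroid cells and the mix of stem and progenitor cells in the results below was not tested. Fits with a term for immunoglobulin-rich libraries or for Y-linked expression are given beside the members whose values moved most. Y-linked expression was high only in Hmga2 replicates 1 and 3. In a fit with the Y-linked term the group difference therefore rests largely on Hmga2 replicate 2, and such a fit does not separate sex from group.

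PRC2 places methyl groups on lysine 27 of histone H3, a mark of silenced developmental genes. EZH2 or EZH1 is the methyltransferase, which is active only when bound to EED and SUZ12, while RBBP4 or RBBP7 binds histones. Accessory subunits divide the complex into a form with a Polycomb-like protein (MTF2, PHF1 or PHF19), called PRC2.1, and a form with JARID2 and AEBP2, called PRC2.2. In blood formation EZH2 is prominent in dividing progenitors and EZH1 in quiescent stem cells. Loss of Ezh2 is known to raise Hmga2 in Jak2-mutant marrow.

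EZH2 is a known target of E2F factors, the transcription factors of the G1 to S transition, so the start regions of the 10 genes were searched for E2F-type cores. RefSeq start windows on GRCm38.p6, from 250 bases before the start to 50 bases after it, were held for all 10 genes, in 12 windows. The first motif was TTCCCGC, and the others were its variants TTGGCGC and, as the last, TTCGCGC. Both strands were searched, and the variants can overlap each other. At least 1 of them lay in 4 of the 12 windows, those of Ezh2, Suz12, Rbbp4 and Phf19, against 8.07% of 32851 windows of all genes and 13.7% of 13416 windows of genes tested here. Both methyltransferase genes are shown to compare the window that holds a core with the one that does not, followed by the other 3 windows that hold one. Capitals mark the cores.
Ezh2, chr6:47594981-47595280, minus strand: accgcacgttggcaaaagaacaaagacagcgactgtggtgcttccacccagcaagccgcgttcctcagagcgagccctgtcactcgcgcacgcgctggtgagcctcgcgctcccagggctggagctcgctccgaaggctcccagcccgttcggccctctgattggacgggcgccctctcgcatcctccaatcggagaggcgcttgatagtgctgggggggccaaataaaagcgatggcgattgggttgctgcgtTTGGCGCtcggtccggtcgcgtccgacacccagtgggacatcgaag
Ezh1, chr11:101226414-101226713, minus strand: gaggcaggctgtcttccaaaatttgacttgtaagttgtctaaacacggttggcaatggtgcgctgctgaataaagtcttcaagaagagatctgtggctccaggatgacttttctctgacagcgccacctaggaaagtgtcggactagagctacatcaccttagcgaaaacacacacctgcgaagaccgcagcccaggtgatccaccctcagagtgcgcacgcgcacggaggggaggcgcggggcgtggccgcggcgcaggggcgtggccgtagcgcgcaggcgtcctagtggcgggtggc
Suz12, chr11:79992856-79993155, plus strand: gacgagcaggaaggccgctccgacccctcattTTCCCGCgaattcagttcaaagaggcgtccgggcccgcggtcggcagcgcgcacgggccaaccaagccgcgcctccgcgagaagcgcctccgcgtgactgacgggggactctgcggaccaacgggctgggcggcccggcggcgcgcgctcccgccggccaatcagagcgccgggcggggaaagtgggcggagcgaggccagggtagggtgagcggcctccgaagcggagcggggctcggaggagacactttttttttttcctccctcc
Rbbp4, chr4:129335321-129335620, minus strand: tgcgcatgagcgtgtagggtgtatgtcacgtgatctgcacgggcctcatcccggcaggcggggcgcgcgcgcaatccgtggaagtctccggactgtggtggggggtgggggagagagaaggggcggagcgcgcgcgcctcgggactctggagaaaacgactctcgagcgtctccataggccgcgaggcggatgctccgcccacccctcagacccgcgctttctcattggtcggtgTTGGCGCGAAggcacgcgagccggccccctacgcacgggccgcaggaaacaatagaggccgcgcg
Phf19, chr2:34913927-34914226, minus strand: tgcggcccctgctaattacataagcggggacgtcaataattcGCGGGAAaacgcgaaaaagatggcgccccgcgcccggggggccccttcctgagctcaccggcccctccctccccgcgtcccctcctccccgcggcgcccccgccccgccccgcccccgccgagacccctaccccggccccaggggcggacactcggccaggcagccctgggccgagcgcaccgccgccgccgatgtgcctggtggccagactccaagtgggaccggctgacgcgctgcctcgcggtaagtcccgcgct
The core of Ezh2 began 4 bases after the first transcribed base of its window, and that of Rbbp4 began 15 bases before it and overlapped a second core on the other strand. Those of Suz12 and Phf19 lay 218 and 208 bases before it. The Ezh2 window had 31 CpG dinucleotides and the Ezh1 window 23, against a median of 7 over all windows. That median includes windows of genes not tested here, and none was taken over the tested genes alone. A match of letters describes the sequence and does not show binding.

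Per kilobase of merged exon, the genes of the histone-binding subunits were the most abundant, and Jarid2, Phf1, Ezh1 and Phf19 the least. Rbbp7 led with 165 ± 11 CPM per kb in the libraries labelled Hmga2 and 170 ± 0.984 CPM per kb in the vector libraries (SD, n = 3 each). Rbbp4 followed with 89.4 ± 3.18 CPM per kb in labelled Hmga2 libraries and 84.5 ± 6.66 CPM per kb in vector libraries, and then Ezh2 with 69.8 ± 5.22 CPM per kb in labelled Hmga2 libraries and 66.3 ± 3.39 CPM per kb in vector libraries. The partners that EZH2 needs for activity were lower, Eed at 38.9 ± 1.85 CPM per kb in labelled Hmga2 libraries and 38.9 ± 3.16 CPM per kb in vector libraries and Suz12 at 30.2 ± 5.74 CPM per kb in labelled Hmga2 libraries and 26.8 ± 2.28 CPM per kb in vector libraries. Mtf2 was the most abundant accessory gene, at 25.1 ± 3.14 CPM per kb in labelled Hmga2 libraries and 22.7 ± 3.14 CPM per kb in vector libraries. The order of these 6 genes down to Mtf2, and the step from Mtf2 to Jarid2, was the same in 6 of 6 libraries. Below them Jarid2, Phf1, Ezh1 and Phf19 lay between 5.68 and 10.4 CPM per kb in every library. These neighbours were not separated beyond the spread of libraries, with Jarid2 above Phf1 in 5 of 6 libraries, Phf1 above Ezh1 in 4 of 6 and Ezh1 above Phf19 in 5 of 6. Their order depended on the length used: per kilobase of the longest transcript Ezh1 (10.7 CPM per kb over the 6 libraries) stood above Jarid2 (9.58) and Phf1 (8.34).

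**Figure D1:**
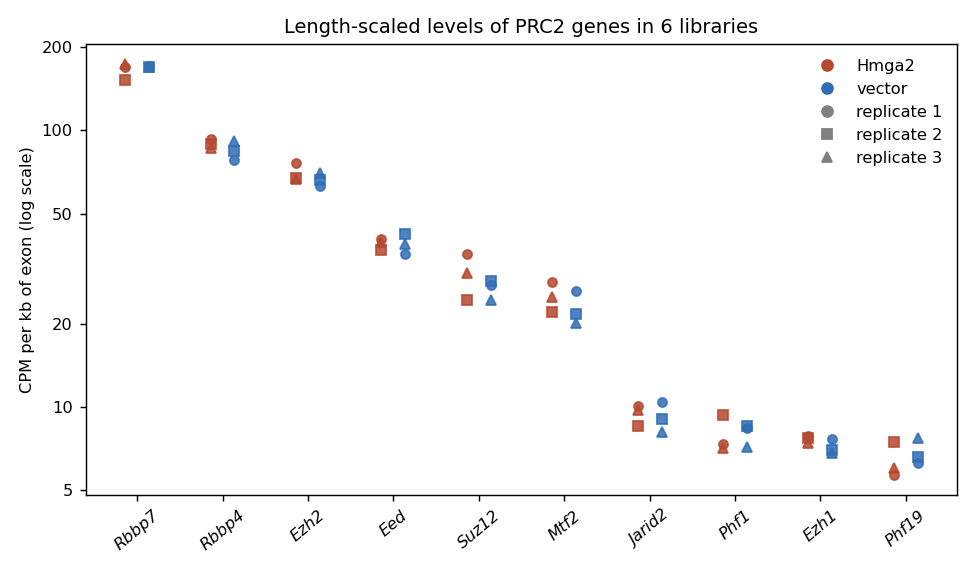
Length-scaled level of each PRC2 gene, in CPM per kilobase of exon on a log axis, with 1 point per library, libraries labelled Hmga2 on the left of each gene and vector libraries on the right. Rbbp7, Rbbp4 and Ezh2 lead, and Jarid2, Phf1, Ezh1 and Phf19 lie together between 5.68 and 10.4 CPM per kb.

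Ezh2 (chromosome 6, positions 47530139 to 47595341) was at 213, 188 and 186 CPM in libraries labelled Hmga2, against 177, 185 and 196 CPM in the vector libraries. The groups overlapped, with the highest value in Hmga2 replicate 1 and the lowest in vector replicate 1, a span of 1.2-fold. The log2 fold change was 0.07 (SE 0.08, 95% interval -0.12 to 0.27, adjusted p = 0.91, edgeR), and between 4673 and 7526 reads per library lay behind it. On the fold scale the interval ran from 0.92 to 1.21. Leaving out Hmga2 replicate 1 gave an Ezh2 log2 fold change of 0.012, and leaving out vector replicate 1 or 3 gave 0.038 or 0.118. With Y-linked expression as a term it was 0.033.

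Ezh1 (chromosome 11, positions 101191115 to 101226463), the paralog that can replace EZH2 in the complex, was at 47.5, 47 and 45.1 CPM in libraries labelled Hmga2, against 46.5, 42.4 and 41.5 CPM in the vector libraries. Vector replicate 1 lay among the libraries labelled Hmga2, and the other vector libraries lay below them. Its log2 fold change was 0.10 (SE 0.08, 95% interval -0.10 to 0.29, adjusted p = 0.882, edgeR), the smallest adjusted p among the 10 genes.

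The balance of the methyltransferase genes did not separate the groups. On the CPM scale, without length, Ezh2 stood above Ezh1 by a log2 ratio of 2.16, 2.00 and 2.04 in the libraries labelled Hmga2, against 1.93, 2.13 and 2.23 in the vector libraries. The groups overlapped, and the difference of -0.03 gave p = 0.9 in an exact two-sided permutation test, where 3 libraries against 3 allow no p below 0.1. This ratio does not depend on how libraries are scaled. Per kilobase of merged exon Ezh2 was between 8.24 and 10.2 times as abundant as Ezh1 over the 6 libraries, and between 5.73 and 7.1 times when the longest transcript of each gene gave the length.

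Eed (chromosome 7, positions 89954654 to 89980983), which reads the methyl mark and activates the enzyme, was at 83.5, 76.2 and 81.7 CPM in libraries labelled Hmga2, against 73.8, 86.9 and 80.3 CPM in the vector libraries. Both extremes were vector libraries. The log2 fold change was 0.00 (SE 0.09, 95% interval -0.20 to 0.21).

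Suz12 (chromosome 11, positions 79993106 to 80034123), the scaffold on which the accessory subunits assemble, was at 156, 106 and 133 CPM in libraries labelled Hmga2, against 120, 125 and 106 CPM in the vector libraries. Its coefficient of variation in the libraries labelled Hmga2 was 19%, the widest among the 10 genes, and its lowest value there matched the lowest vector library. The log2 fold change of 0.17 was the largest of the 10 (SE 0.15, 95% interval -0.17 to 0.51, adjusted p = 0.883, edgeR). Leaving out Hmga2 replicate 1 gave 0.03, leaving out Hmga2 replicate 2 gave 0.30, and leaving out vector replicate 3 gave 0.109. A term marking the immunoglobulin-rich libraries gave 0.059. With Y-linked expression as a term the value was -0.08, which rests largely on Hmga2 replicate 2.

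The histone chaperone gene Rbbp4 (chromosome 4, positions 129307100 to 129335370) was at 408, 394 and 380 CPM in libraries labelled Hmga2, against 345, 370 and 403 CPM in the vector libraries. Its log2 fold change was 0.08 with a standard error of 0.09, and lay at 0.028 without vector replicate 1 and 0.148 without vector replicate 3. Rbbp7 (chromosome X, positions 162760402 to 162779092), the close paralog, was at 398, 358 and 405 CPM in labelled Hmga2 libraries, against 400, 396 and 400 CPM in vector libraries, with a coefficient of variation of 0.579% among the vector libraries, and Hmga2 replicate 2 lay below all others. The log2 fold change of Rbbp7 was -0.04 (SE 0.08, 95% interval -0.23 to 0.14), and it was 0.008 without Hmga2 replicate 2 and -0.118 with Y-linked expression as a term.

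Both chaperones also serve other chromatin complexes. The log2 ratio of Rbbp7 to Rbbp4 was -0.04, -0.14 and 0.09 in the libraries labelled Hmga2, against 0.22, 0.10 and -0.01 in the vector libraries. The groups overlapped, and the difference of -0.13 gave p = 0.2 (exact two-sided permutation test). It was -0.072 without vector replicate 1 and -0.074 without Hmga2 replicate 2. Reads of Rbbp7 can be confused with those of other genes: 8.79% of the 50-base words of its transcripts also occur in transcripts of other genes, most of all Gm6382, which was listed at 8.01 to 9.79 CPM. For Rbbp4 the share of such words was 0.872%, for Mtf2 it was 0.0246%, and for each of the other 7 genes it was 0.

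The Polycomb-like genes steer PRC2.1 to CpG-rich DNA. Mtf2 (chromosome 5, positions 108065674 to 108109004) was at 115, 89.3 and 101 CPM in libraries labelled Hmga2, against 106, 88.1 and 81.8 CPM in the vector libraries, with a log2 fold change of 0.14 and a standard error of 0.13. The difference depended on single libraries, since leaving out vector replicate 1 or 3 gave 0.26 or 0.069, and leaving out Hmga2 replicate 1 or 2 gave 0.05 or 0.227. It was 0.015 with Y-linked expression as a term. Phf1 (chromosome 17, positions 26933052 to 26937908) was at 19.4, 24.7 and 18.8 CPM in labelled Hmga2 libraries, against 22.1, 22.5 and 18.9 CPM in vector libraries, and its log2 fold change was -0.01 with a standard error of 0.15. Of the exonic bases of Phf1, 30.7% overlap the gene Cuta on the other strand, so where strand was not used in counting their reads cannot be told apart. Exons of the opposite-strand gene with the widest overlap covered between 3.28% (Ezh2) and 18.1% (Rbbp4) of the exonic bases of 6 other members, and none of Ezh1, Jarid2 and Phf19. Phf19 (chromosome 2, positions 34893757 to 34914026) was at 21.3, 27.9 and 22.5 CPM in labelled Hmga2 libraries, against 23.5, 24.6 and 28.7 CPM in vector libraries, with a log2 fold change of -0.10, a standard error of 0.14 and the lowest lower bound of the 10 genes, -0.44. Leaving out Hmga2 replicate 1 or 2 gave Phf19 a value of -0.025 or -0.229, and leaving out vector replicate 1 or 3 gave -0.161 or -0.004. It was 0.067 with Y-linked expression as a term.

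Jarid2 (chromosome 13, positions 44729474 to 44921643), the PRC2.2 subunit that helps recruit and stimulate the enzyme, was at 62.4, 52.6 and 60 CPM in libraries labelled Hmga2, against 64.2, 55.6 and 49.9 CPM in the vector libraries. The highest and the lowest values were both vector libraries, and the log2 fold change was 0.04 with a standard error of 0.12. Its partner gene Aebp2, which is not among the 10, was at 85.8, 75.4 and 82.4 CPM in labelled Hmga2 libraries, against 83.6, 71.1 and 78.4 CPM in vector libraries. On the CPM scale, without length, the summed level of Mtf2, Phf1 and Phf19 was set over that of Jarid2 and Aebp2. Jarid2 and Aebp2 have longer merged exons (6.16 and 8.16 kb) than Mtf2, Phf1 and Phf19 (4.06, 2.64 and 3.74 kb). The ratio therefore compares libraries and not numbers of transcripts. The log2 ratio was 0.07, 0.15 and 0.00 in the libraries labelled Hmga2, against 0.04, 0.09 and 0.01 in the vector libraries. The difference of 0.02 gave p = 0.7 in an exact two-sided permutation test, and turned to -0.05 when log2 levels were averaged over genes.

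**Figure D2:**
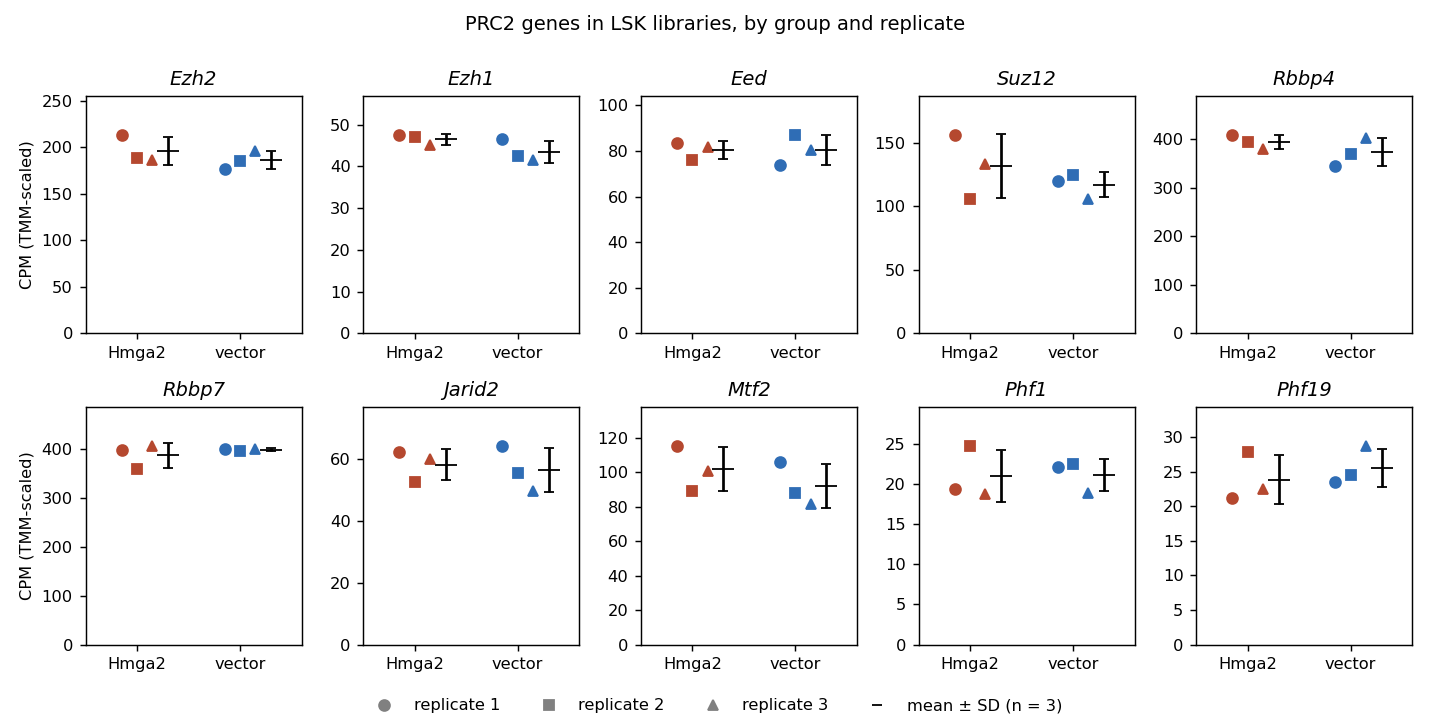
CPM of each PRC2 gene in the 3 libraries labelled Hmga2 (left, red) and the 3 vector libraries (right, blue), with mean and SD in black and the marker shape giving the replicate. All axes start at 0, and the groups overlap for each of the 10 genes, Suz12 having the widest spread among the libraries labelled Hmga2.

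Across the whole complex no member was called. The quasi-likelihood test of edgeR, adjusted over all 16739 genes tested, called 0 of the 10 genes in either direction, where it called 0.0% of all genes. At an unadjusted p under 0.05 it took 0 of the 10, against 5.59% of all genes, and DESeq2 called 0 of the 10, against 0.321% of all genes. A gap between the groups was seen for 0 of the 10 genes, against 11.2% of all genes, 5.28% being higher and 5.88% lower in libraries labelled Hmga2. All 10 passed the filter on low counts, 7 with a positive and 3 with a negative fold change, and the median of their log2 values was 0.06, beside 0.00 over all genes tested. Every one of the 10 estimates lay within 0.2 of 0 on the log2 scale, which held for 65.2% of all genes tested and for 81.5% of the 8430 genes with a mean of at least 20 CPM. The 95% intervals of the fold, taken one gene at a time, ran from 0.736 at the lowest (Phf19) to 1.43 at the highest (Suz12). The intervals are not limits of detection of the adjusted test, and the p-values do not show that the groups were equal. Bulk RNA does not tell fewer expressing cells from less RNA per cell.

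**Figure D3:**
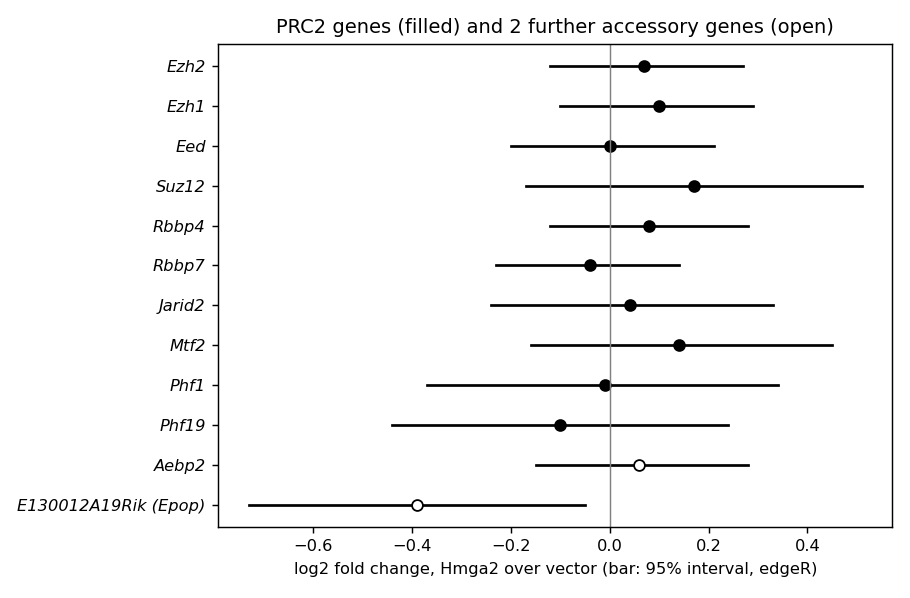
Log2 fold change of labelled Hmga2 over vector for the 10 PRC2 genes (filled) and the accessory genes Aebp2 and E130012A19Rik (open), with 95% intervals from edgeR. All 10 intervals of the PRC2 genes include 0, and that of E130012A19Rik, from -0.73 to -0.05, does not.

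Accessory genes outside the 10 were measured alongside. E130012A19Rik, the earlier symbol of Epop, whose protein joins PRC2.1 to elongin, was at 19.1, 22.4 and 27 CPM in libraries labelled Hmga2, against 30.5, 27.8 and 31.6 CPM in the vector libraries. All 3 libraries labelled Hmga2 lay below all 3 vector libraries, as they did for 5.88% of all genes. The log2 fold change was -0.39 with a standard error of 0.15, short of the threshold over all genes (adjusted p = 0.855, edgeR; adjusted p = 0.647, DESeq2). Lcor, which encodes a PRC2-associated protein, was at 5.56, 2.83 and 5.1 CPM in labelled Hmga2 libraries, against 4.63, 3.07 and 2.8 CPM in vector libraries. AU022751, the earlier symbol of Ezhip, an inhibitor of the complex, was listed at 0 in all 6 libraries.

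Several members were high or low in the same libraries. Relative to the mean of each gene over the 6 libraries, Suz12, Mtf2 and Jarid2 were all above it in Hmga2 replicates 1 and 3 and all below it in Hmga2 replicate 2 and vector replicate 3. Suz12 deviated by 0.34 in Hmga2 replicate 1 and by -0.22 in vector replicate 3 on the log2 scale, and Mtf2 by 0.25 and -0.24. Phf19 lay on the other side in these 4 libraries. It was at -0.21, 0.18 and -0.13 in the libraries labelled Hmga2 and at 0.22 in vector replicate 3. In vector replicates 1 and 2 Suz12 (-0.04 and 0.02) differed in sign from Mtf2 (0.14 and -0.13) and Jarid2 (0.17 and -0.04). Ezh2 and Rbbp4 were highest in Hmga2 replicate 1, with deviations of 0.16 and 0.09, and lowest in vector replicate 1, with -0.11 and -0.15. Of the 10 genes, 8 were above their own mean in Hmga2 replicate 1 and 4 in Hmga2 replicate 2. The same replicates 1 and 3 labelled Hmga2 had Y-linked transcripts at 192 and 127 CPM and immunoglobulin shares of 0.0886% and 0.0631%, and the part of either in this pattern was not tested. The chromatin genes Rnf2 and Ash1l, outside the 10, were high or low as Suz12 was in Hmga2 replicates 1, 2 and 3 and vector replicate 3. Rnf2 was at 52.6, 38.6 and 45.7 CPM in libraries labelled Hmga2, against 45.3, 36.5 and 34.6 CPM in vector libraries. Ash1l was at 74.5, 55.3 and 64.7 CPM in labelled Hmga2 libraries, against 60.5, 57.1 and 42.8 CPM in vector libraries. The share of all genes with this pattern was not counted. Members of 1 library share its RNA and its scaling and are not replicates of each other.

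**Figure D4:**
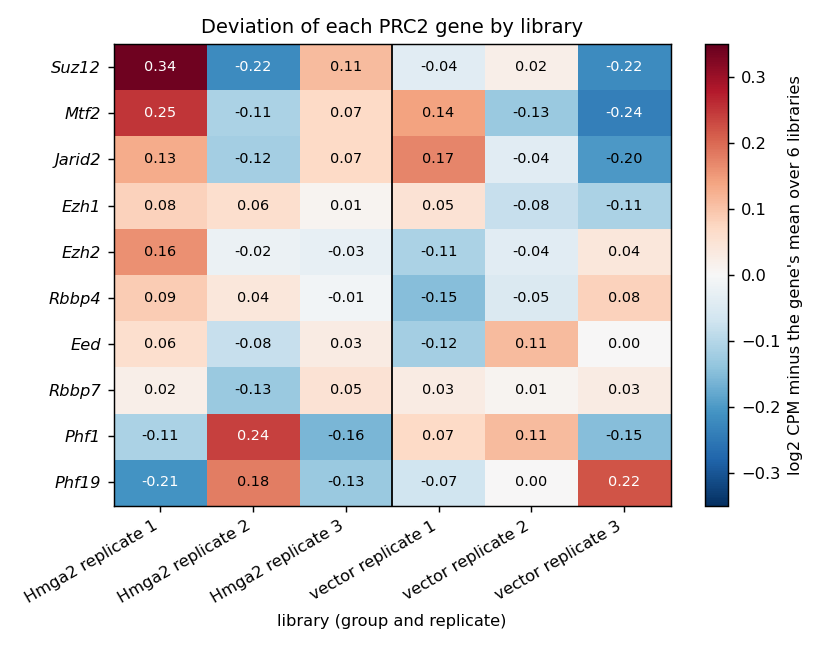
Deviation of each PRC2 gene from its own mean over the 6 libraries, in log2 CPM, with the libraries labelled Hmga2 in the left 3 columns and the vector libraries in the right 3. Suz12, Mtf2 and Jarid2 are above their means in Hmga2 replicates 1 and 3, and Phf19 is below its mean in both.

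Cell division genes were set beside Ezh2, since its expression follows the cell cycle in many tissues. Of 25 proliferation genes tested, 10 fold changes were positive and 15 negative, and the log2 median was -0.01. Of the 25, 0 were called by edgeR (0.0% of all genes) or by DESeq2 (0.321%), and 1 had an unadjusted p under 0.05. Mki67 was at 670, 578 and 573 CPM in libraries labelled Hmga2, against 543, 532 and 508 CPM in the vector libraries, without overlap. Rrm2, a subunit of ribonucleotide reductase, was at 178, 161 and 175 CPM in labelled Hmga2 libraries, against 184, 200 and 205 CPM in vector libraries, without overlap in the other direction. These were the 2 of 25 genes without overlap, beside 11.2% of all genes, and the 1 at an unadjusted p under 0.05 stands beside 5.59%. The mean log2 CPM of the 25 genes was 7.75, 7.72 and 7.73 in labelled Hmga2 libraries, against 7.65, 7.74 and 7.85 in vector libraries. Over the 6 libraries Ezh2 and this mean had a Pearson r of 0.531 (p = 0.311) and a Spearman rho of 0.714 (p = 0.136), by exact permutation of the pairings, the only correlation that was tested. With CPM by library total, r was 0.33. Without the 2 libraries farthest from the median, vector replicates 1 and 3, r was 0.628 over 4 libraries. Leaving out Hmga2 replicate 1, where Ezh2 was high for its proliferation mean, gave r = 0.943, and leaving out vector replicate 1 gave 0.222.

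The genes whose pattern was most like that of Ezh2 over the 6 libraries, among 10214 with a mean of at least 5 CPM, were Rbm6 (Pearson r of log2 CPM 0.998), Galnt6 (0.988), Ints10 (0.982), Rbm7 (0.974) and Fam133b (0.972). These are the top of a ranking over 6 points and carry no test. Among the other 9 members, Rbbp4 ranked highest, at place 150 with a likeness of 0.864, and Suz12 and Eed followed with 0.503 and 0.467, while Phf1 was at -0.464.

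PRC1, the second Polycomb complex, binds the mark that PRC2 places and ubiquitinates histone H2A. Of its 23 genes listed, all were tested, 15 fold changes were positive and 8 negative, and the log2 median was 0.06. Of the 23, 0 were called by edgeR (0.0% of all genes) or by DESeq2 (0.321%), and 0 had an unadjusted p under 0.05 (5.59%). Bmi1, which sustains stem cell self-renewal, was at 39 ± 7.42 CPM in libraries labelled Hmga2 and 35.1 ± 2.66 CPM in the vector libraries (SD, n = 3 each). The ubiquitin ligase gene Rnf2 was at 45.7 ± 7 CPM in labelled Hmga2 libraries and 38.8 ± 5.75 CPM in vector libraries, and Phc1, a polyhomeotic subunit, at 64.7 ± 7.14 CPM in labelled Hmga2 libraries and 52.7 ± 6.88 CPM in vector libraries, the widest relative difference of the list at a log2 fold change of 0.30 (adjusted p = 0.855, edgeR).

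Enzymes that remove the PRC2 and PRC1 marks were measured as well. Kdm6b, an H3K27 demethylase, was at 34.3, 34.2 and 41.1 CPM in libraries labelled Hmga2, against 38.8, 34.3 and 29.4 CPM in the vector libraries. Kdm6a, the X-linked demethylase, was at 50.4, 60.2 and 44.5 CPM in labelled Hmga2 libraries, against 62, 55.3 and 45.3 CPM in vector libraries. Asxl1, a partner of the H2A deubiquitinase BAP1 and a gene often mutated in myeloid neoplasms, was at 153, 142 and 152 CPM in labelled Hmga2 libraries, against 138, 140 and 133 CPM in vector libraries, without overlap and with a log2 fold change of 0.12 and a standard error of 0.07 (adjusted p = 0.855, edgeR). Of 12 trithorax-group genes, which act against Polycomb silencing, 9 were positive and 3 negative, with a median of 0.05, and Ash2l was at 101, 94 and 102 CPM in labelled Hmga2 libraries, against 102, 109 and 119 CPM in vector libraries. Of 10 partners of RBBP4 and RBBP7 in deacetylase and chromatin assembly complexes, 3 were positive and 7 negative, with a median of -0.03. Sin3a, a corepressor scaffold, was at 161, 151 and 144 CPM in labelled Hmga2 libraries, against 139, 140 and 128 CPM in vector libraries. Groups did not overlap for 1 of 3 deubiquitinase genes tested (Asxl1), 1 of 12 trithorax-group genes (Ash2l) and 0 of 2 demethylase genes. Among the 10 partners, 1 gene was higher without overlap (Sin3a) and 1 lower, beside 11.2% of all genes without overlap. In these lists 0 genes were called by edgeR (0.0% of all genes) or by DESeq2 (0.321%), and 0 had an unadjusted p under 0.05 (5.59%).

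Genes known to be silenced by PRC2 were mostly near the floor. Of 21 listed, 15 were under the filter on low counts. Among them were Gata4, Hoxd13, Wt1 and Evx1, listed at 0 in all 6 libraries, and Lin28b with at most 2 reads in a library. Most of all symbols were also under the filter: 16739 of 48395 passed it, and 26164 were above 0 in at least 1 library. Of the 6 listed targets tested, 0 were called by edgeR (0.0% of all genes) or by DESeq2 (0.321%), and 0 had an unadjusted p under 0.05 (5.59%). Cdkn2a, which encodes cell cycle inhibitors, was at 0.0847, 0.422 and 2.15 CPM in libraries labelled Hmga2, from 3, 13 and 74 reads, against 0.882, 1.54 and 1.05 CPM in the vector libraries. Its log2 fold change of -0.37 had an interval from -2.54 to 1.79 and was 0.17 without Hmga2 replicate 1. Igf2bp2, encoding an RNA-binding protein downstream of Hmga2, was at 4.86, 5.72 and 10.5 CPM in labelled Hmga2 libraries, against 6.39, 4.23 and 5.4 CPM in vector libraries. Hoxa9, which is active in progenitors, was at 48.1, 48.6 and 50 CPM in labelled Hmga2 libraries, against 46.9, 53.1 and 52.2 CPM in vector libraries.

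**Figure D5:**
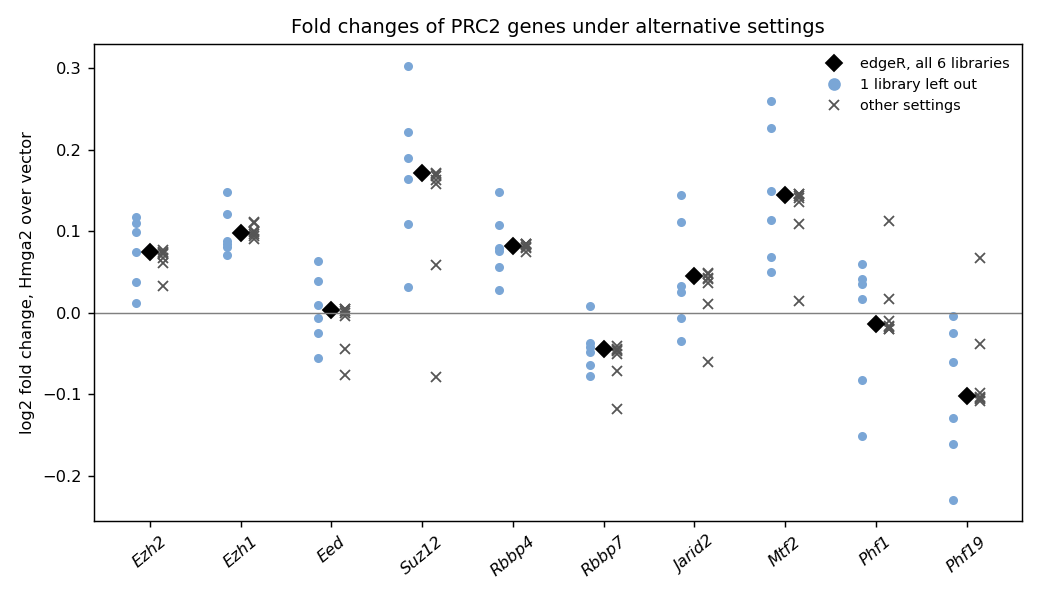
Log2 fold change of labelled Hmga2 over vector for each PRC2 gene with all 6 libraries in edgeR (diamonds), with 1 library left out (circles) and under the other settings (crosses). Values stay between -0.23 and 0.30, and those of Eed, Suz12, Jarid2, Phf1, Phf19 and Rbbp7 cross 0 under at least 1 setting.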

How the data were processed

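Values were expected counts deposited by the authors, that is estimated counts per gene symbol in 1 table per library, recognised from the values (67.3% to 70.1% of those above 0 whole within 1e-06). The submitters' processing notes name Partek 3.0, Bowtie2 and mm10. The counter, annotation and strand option were not given in the sources used here. Counts were rounded and fitted in edgeR 4.0.16 (R 4.3.3) with filterByExpr, TMM factors, a quasi-likelihood F test with group as the only term, and Benjamini-Hochberg adjustment over 16739 genes at a threshold of 0.05. Standard errors came from the F statistic. The steps were tested on simulated counts, where edgeR missed part of the changed genes and DESeq2 found more of them with more false calls. DESeq2 1.42.0 was the other tool, and scipy 1.17.1 gave the permutation tests. Positions and exonic lengths came from GENCODE M21 (GRCm38, the build of mm10), and start windows from RefSeq. No pair of replicates was alike within sampling noise (chi-square statistic over its degrees of freedom 24.8 to 57). The members and lists were chosen with earlier results of these data known. Named genes were the 10 members, the targets Hmga2, Cdkn2a, Lin28b and Igf2bp2, at most 4 genes per other list by smallest unadjusted p, and the 5 genes above 5 CPM, neither predicted nor immunoglobulin, most like Ezh2. Bmi1, Ly6a, Xist, Cuta, Gm6382, AU022751, Gata4, Hoxd13, Wt1 and Evx1 were named outside this rule, after their values were seen.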

Additional observations from a re-analysis of the deposited data

How the results depend on the processing

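No PRC2 gene and no gene of the other chromatin, target and proliferation lists was called under any setting run, while DESeq2 called 3 granulocyte and 2 erythroid markers. Over all genes the count was 0 in edgeR, 1 without the filter on low counts and 67 in DESeq2. The replicate numbers gave no sign of pairing, since deviations of same-numbered libraries correlated at -0.205, -0.499 and -0.263. Deviations were taken within groups of 3, so these values cannot show whether same-numbered libraries were handled together. With the replicate block 0 genes were called, and the Ezh2 log2 fold change was 0.073. Small fold changes changed sign with single libraries left out, between the following bounds: Eed -0.056 and 0.063, Rbbp7 -0.078 and 0.008, Jarid2 -0.034 and 0.145, Phf1 -0.151 and 0.06, Hmga2 -0.493 and 0.063, Cdkn2a -2.19 and 0.166, Igf2bp2 -0.014 and 0.599, and Kdm6a -0.194 and 0.039. Eed was at 0.0 with RLE size factors and at -0.004 without immunoglobulin genes. With a term for immunoglobulin-rich libraries Eed was at -0.044 and Phf1 at 0.017. With a term for Y-linked expression Eed was at -0.076, Suz12 at -0.079, Jarid2 at -0.06 and Phf1 at 0.112. In that fit Phf19 was at 0.067, Hmga2 at 0.123 and Kdm6a at 0.054. Its group differences rest largely on Hmga2 replicate 2, the only library labelled Hmga2 with low Y-linked expression. With 1 library left out, the group difference in the log2 ratio of Ezh2 to Ezh1 lay between -0.111 and 0.043, and that of PRC2.1 to PRC2.2 genes between -0.014 and 0.059, the PRC2.1 to PRC2.2 difference being -0.051 with averaged log2 levels. Per kilobase, the mean log2 ratio of Ezh2 to Ezh1 was 3.20 with merged exons and 2.68 with the longest transcript, a length chosen after seeing the data. The Ezh2 correlation with proliferation genes lay between 0.222 and 0.943 with 1 library left out. The causes were not tested.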
